A study of Mus musculus with 9 samples.

Results

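Cd274 encodes an inhibitory ligand and Cd244 a receptor of immune cells. Both genes were lower in CD11b+Gr1+ spleen cells of tumour-bearing mice than in those of healthy controls. They were taken by symbol from the authors' deposited table of significant changes, where Cd274 has 1 row and Cd244, now named Cd244a in RefSeq, has 2. They are 2 of the 895 genes, and 3 of the 964 rows, in that table. The authors had chosen these rows on the same 9 samples, by a two-sample test and a change of at least 2-fold. The difference between the groups is therefore given here as a description, with no test.

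Cd274 encodes PD-L1, a surface protein of the B7 family that binds the receptor PD-1 on T cells and damps their activation. It is induced by interferons through Irf1, and it is found on myeloid cells in many tumour models. Cd244 encodes 2B4, a receptor of the SLAM family that binds Cd48 and signals through small SH2 adaptors. It is best known from natural killer cells and is also carried by myeloid cells, where it has been used to mark granulocytic suppressor cells in tumour-bearing mice.

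The experimental group was 6 L2-Cre;p120f/f mice with tumours, 1 array per mouse. The control group was 3 arrays, each of a pool from 3 mice without disease, of genotype L2-Cre;p120+/f. All animals carry L2-Cre, which acts in squamous epithelium of the mouth, oesophagus and forestomach. Whether p120-catenin was also lost in the sorted cells was not checked here. The cells were collected by flow cytometry as positive for CD11b and Gr1, which neutrophils, inflammatory monocytes and their precursors share. The labels record no treatment and name a mixed strain background of C57BL/6 and 129. Their age and genotype fields describe embryos and another mutation, which goes against the titles, and these fields were not used. Tumour, genotype and pooling coincide with the group and cannot be told apart. The genes for CD11b and for the Gr1 antigens have no named row, so the sorted identity was not checked against them here.

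Values are log2 expression as deposited, and differences are mice minus pools. Array medians lay between 5.92 and 5.99. Over all rows, arrays correlated at 0.985 to 0.991 among mice, at 0.986 to 0.990 among pools and at 0.954 to 0.974 between a mouse and a pool. No array stood apart from its group. In bulk samples fewer cells of a type and less RNA per cell cannot be told apart.

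The promoters of both genes are shown because both genes were lower in the same mice. Each window runs from 250 bases before to 50 after a transcript start, 5′ to 3′ on the plus strand, from RefSeq on GRCm38.p6. The Cd274 window is chr19:29367188-29367487 and the Cd244 window is chr1:171558943-171559242. Capitals mark every match to the motifs searched.
Cd274: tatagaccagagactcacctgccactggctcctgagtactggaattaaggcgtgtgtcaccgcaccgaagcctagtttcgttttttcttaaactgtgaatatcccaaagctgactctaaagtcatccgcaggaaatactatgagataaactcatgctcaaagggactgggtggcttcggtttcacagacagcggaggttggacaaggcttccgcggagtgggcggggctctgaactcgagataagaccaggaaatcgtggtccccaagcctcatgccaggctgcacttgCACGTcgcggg
Cd244: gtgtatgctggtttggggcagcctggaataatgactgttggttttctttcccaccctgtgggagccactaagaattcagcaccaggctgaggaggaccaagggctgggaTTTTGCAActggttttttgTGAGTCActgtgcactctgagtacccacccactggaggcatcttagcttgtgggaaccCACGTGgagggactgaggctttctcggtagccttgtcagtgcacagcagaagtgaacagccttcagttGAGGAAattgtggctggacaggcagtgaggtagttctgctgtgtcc

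Both strands were searched for 7 motifs. The interferon motifs were GAS (TTCNNNGAA, in 8.3% of 32851 mouse promoter windows) and ISRE (GAAA and GAAA with 2 bases between, 3.44%). The others were NF-kappaB (GGG and CC with 5 bases between, 50.8%), AP-1 (TGANTCA, 7.81%), the hypoxia element (ACGTG, 19.6%), PU.1 (GAGGAA, 28.3%) and C/EBP (TTGCNNAA, 10.8%). The Cd274 window held 1 match, CACGT, the hypoxia element read on the minus strand, and it lies after the transcript start. The Cd244 window held a C/EBP match (TTTTGCAA on the minus strand), an AP-1 match (TGAGTCA, which reads on both strands) and a PU.1 match (GAGGAA, after the start). It also held CACGTG, in which the hypoxia element matches on each strand in overlap. Neither window held the GAS, ISRE or NF-kappaB letters. A match is a description of the sequence and not a binding site.

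Cd274 was among the rows that differed most between the groups. Its log2 level was 9.26, 9.48 and 9.74 in pools 1, 2 and 3. In the 6 mice it was 6.21 at the lowest, 6.26 at the median and 6.56 at the highest. Every mouse lay below every pool, with 2.70 log2 units between the highest mouse and the lowest pool. The mean was 6.34 ± 0.15 (SD, n = 6 mice) against 9.49 ± 0.24 (SD, n = 3 pools), a difference of -3.15 ± 0.12 (SE), or 8.87-fold lower. Ranked from the lowest difference up, it was number 13 of all 31648 rows. Its mean in the mice was 0.35 above the highest array median. Background was not measured here, so how much of this remaining value is signal is not known.

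Cd244 differed by less than Cd274 on the log2 scale. Its row for the RefSeq transcript, NM_018729, was at 11.21, 11.45 and 10.88 in pools 1, 2 and 3. The mice ranged from 9.06 through a median of 9.37 to 9.5. The groups did not overlap, and 1.38 log2 units lay between them. Means were 9.31 ± 0.18 (SD, n = 6) and 11.18 ± 0.29 (SD, n = 3), which differ by -1.88 ± 0.14 (SE), or 3.67-fold. In the same ranking this row was number 112.

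The other Cd244 row carries the accession of a cDNA clone, AK171544, which is not a RefSeq transcript. It stood at 8.18, 9.00 and 8.13 in pools 1, 2 and 3, with pool 2 above the other pools. The mice lay between 6.04 and 6.45, with a median of 6.23. Its difference was -2.21 ± 0.20 (SE), 4.62-fold lower, and the groups were 1.67 log2 units apart. Both Cd244 rows were thus lower in the same direction, but they are read from the same samples and are no replicate of each other. Which transcripts the clone row measures is not given in the sources used here, and its level in the mice was 0.24 above the highest array median.

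**Figure D1:**
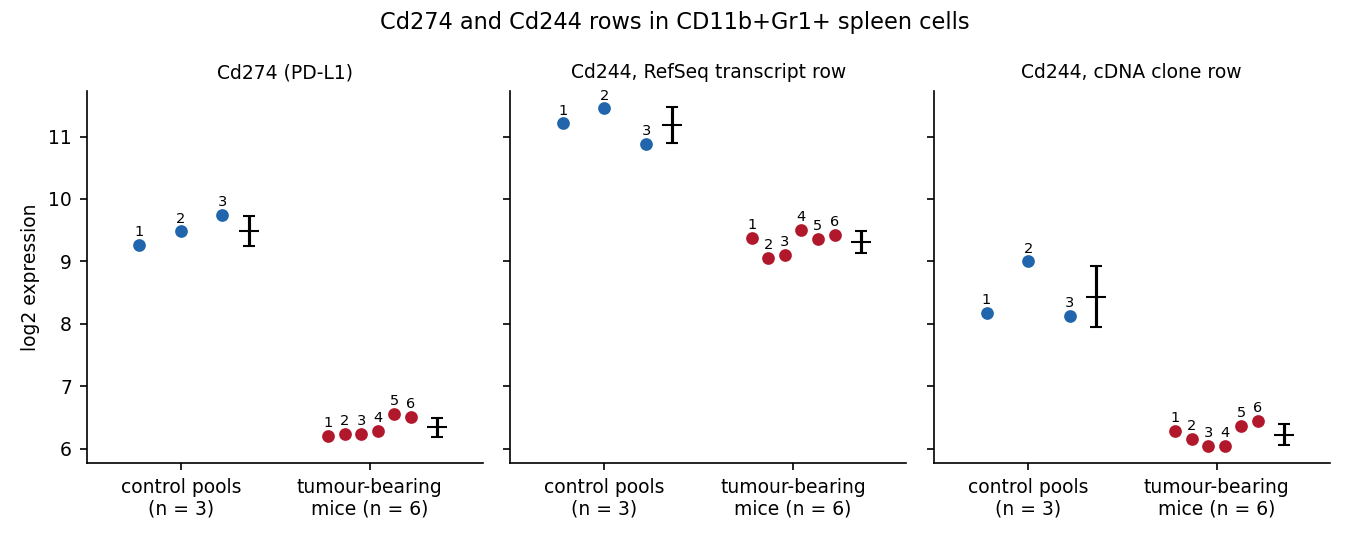
Log2 expression of the Cd274 row and the 2 Cd244 rows in each control pool (blue) and each tumour-bearing mouse (red), numbered by replicate. Bars give the mean and SD of a group; in each panel the 6 mice lie below the 3 pools, by 2.70, 1.38 and 1.67 log2 units from left to right.

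Groups without overlap were common on these arrays. Every mouse lay below every pool in 9.39% of all rows, and 8.83% of all rows were lower by limma (adjusted p under 0.05). The authors' table holds 451 lower rows with a median difference of -1.40. The smallest listed fall is -1.0013. Another 147 rows, not listed there and unnamed here, had a difference between -1.01 and -2.71. Both Cd244 rows lie within the range of these unlisted rows, and Cd274 lies beyond it. In the gene lists used below, all 81 genes with a named row had a limma adjusted p of at most 0.0012. All 81 also had every mouse on one side of every pool. The authors had chosen these rows on the same samples, so the p-values of named genes are descriptions and no support for a change. The members varied among the mice somewhat more than most rows. The SD among mice exceeded that of 65.9% of rows for Cd274, 71.9% for Cd244 and 70.4% for its clone row. Among the pools these shares were 83.4%, 88.3% and 97.3%.

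The partners of PD-L1 and the proteins that hold it at the surface were mostly not analysed here. Of 9 such genes only Cd80 has a named row. Cd80, a costimulatory B7 protein that also binds PD-L1 on the same cell, lay between 8.52 and 8.86 in the pools and between 7.12 and 7.43 in the mice. It fell by 1.39 on the log2 scale, 2.62-fold (limma, adjusted p = 2.51e-05). Pdcd1, which encodes PD-1, Pdcd1lg2, its other ligand, and Cmtm6, which stabilises PD-L1, have no named row. In the RefSeq annotation Pdcd1lg2 is the next protein-coding gene after Cd274. Of 17 other checkpoint ligands and B7 genes 0 have a named row.

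Among the receptors related to Cd244, 2 of 8 other SLAM family genes have a named row, and both fell. Slamf8, a family member of activated macrophages, was at 6.90 ± 0.09 (SD, n = 3) in the pools and 5.13 ± 0.22 (SD, n = 6) in the mice. It fell by 1.77 on the log2 scale (limma, adjusted p = 4.1e-05), and its level in the mice is below every array median. Cd84, a self-binding SLAM receptor, fell by 1.09, from 12.01 ± 0.19 (SD, n = 3) to 10.92 ± 0.22 (SD, n = 6) (limma, adjusted p = 0.000612). All 9 SLAM family genes, Cd244 included, lie on chromosome 1. Cd244a stands first in gene order and Slamf8 last. Between Cd244a and Cd84 lie the SLAM genes Ly9, Slamf7, Cd48 and Slamf1, which have no named row. Cd48 is the ligand of 2B4. Of 13 adaptors and effectors of SLAM signalling, among them Sh2d1a and Sh2d1b1, 0 have a named row. The named genes were all chosen by the authors on these samples, and 410 of all 895 were lower. These counts are therefore not independent evidence of a direction.

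Some inhibitory receptors of myeloid cells were lower beside Cd274 and Cd244. Of 25 such genes 3 have a named row, and all 3 fell, with a median difference of -2.20. The direction of the others is not known here. Among all 895 named genes 410 were lower, and limma called 8.83% of all rows lower. The authors' lower rows had a median of -1.40, and all rows one of 0.02. A named row was chosen for a change of at least 2-fold, so none can lie near the median of all rows. Cd101, an inhibitory receptor of mature neutrophils, fell from between 11.72 and 11.88 in the pools to between 8.05 and 9.13 in the mice, 9.98-fold. Cd22, a sialic acid-binding receptor best known from B cells, fell 4.58-fold. Cd300a, which binds lipids of dying cells, fell 3.42-fold. The limma adjusted p of these 3 genes was at most 3.78e-05, on the samples by which the authors had chosen them.

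Few genes of interferon signalling have a named row here. Of 18 receptor, kinase and transcription factor genes 3 have one, and all 3 fell, each chosen by the authors for its change on these samples. Lower genes made up 410 of all 895 named genes. Irf1, the factor through which interferon-gamma induces Cd274, was at 8.91 to 9.04 in the pools and 7.44 to 7.85 in the mice. It fell by 1.37 ± 0.09 (SE) on the log2 scale. Irf7, a factor of the type I interferon response, fell by 1.23, and Usp18, which restrains the type I interferon receptor, fell by 1.91. The fall of Irf1 was 2.58-fold, beside 8.87-fold for Cd274 itself. Limma gave these 3 genes an adjusted p of at most 0.000598, and Usp18 lost its call with the replicate number as a block (adjusted p = 0.0679).

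Most genes induced by interferon-gamma that have a named row were lower. Of 21 genes 9 have a named row, of which 8 fell and 1 rose (median difference -1.56). The direction of the others is not known here. All 9 were chosen by the authors for their change, and of all 895 named genes 410 were lower. Ciita, the transactivator of MHC class II genes, fell by 1.94 on the log2 scale. The guanylate-binding proteins Gbp2, Gbp5 and Gbp3 had differences of -1.92, -1.77 and -1.67. Nos2, the inducible nitric oxide synthase, rose by 1.52. The difference of Cd274, at -3.15, was greater in size than that of any of these 8. Among NF-kappaB and hypoxia regulators and targets 2 of 13 have a named row. Tnfaip3, a brake on NF-kappaB, fell by 1.17 and the adhesion molecule Icam1 fell by 1.13. Limma gave these 11 genes an adjusted p of at most 0.000267.

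Mediators by which myeloid cells restrain T cells were mixed. Of 20 such genes, with neither Cd274 nor Cd244 among them, 6 have a named row, 4 lower and 2 higher. Ptgs2, which makes prostaglandins, was 16.8-fold lower and Slc7a11, the cystine transporter, 3.46-fold lower. Cd38, an NAD-hydrolysing ectoenzyme, was 14.6-fold higher and Nos2 2.87-fold higher. The limma adjusted p of the 6 was at most 0.000267. Gbp5 and Ptgs2 in the mice, at 4.99 and 5.81, and Nos2 in the pools, at 5.86, had means below every array median, so the sizes of their changes are uncertain.

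**Figure D2:**
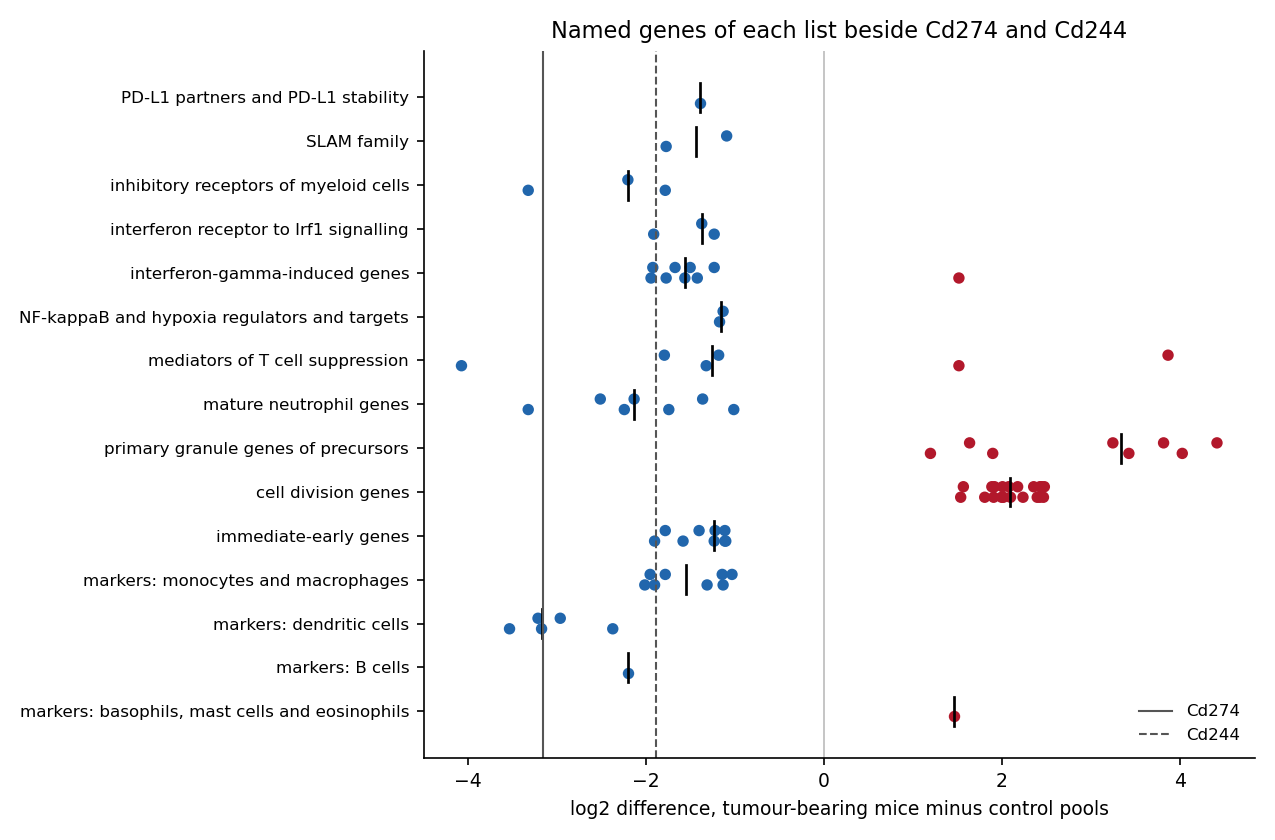
Log2 difference of each named gene (points, blue lower and red higher in the mice) in the 15 lists that have one, with the list median as a black tick. Vertical lines mark Cd274 at -3.15 and Cd244 at -1.88; the median lies below 0 in 12 lists and above 0 in those of primary granules, cell division and basophils, mast cells and eosinophils.

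Markers of several cell types moved with Cd274 and Cd244. A gene has a named row only if the authors called it changed, and of the 895 named genes 410 were lower and 485 higher. Of 22 monocyte and macrophage markers 8 have a named row and all 8 fell, led by Adgre1 (4.02-fold), Csf1r (3.86-fold) and Nr4a1 (3.73-fold). Their summed log2 level was 65.69 to 69.33 in the mice and 78.22 to 79.48 in the pools. Of 15 dendritic cell markers 5 have a named row and all 5 fell, among them H2-Aa (11.6-fold) and Itgax (7.76-fold), with sums of 33.65 to 37.45 and 49.63 to 51.23. Of 20 mature neutrophil genes 7 have a named row and all 7 fell, including Il1b (5.71-fold) and Ifitm1 (4.74-fold), with sums of 57.65 to 63.13 and 74.51 to 75.53. Of 22 immediate-early genes 9 have a named row and all 9 fell. Their sums were 81.60 to 82.67 in the mice and 93.21 to 96.20 in the pools. When mice and pools were each given their own variance, 5 of these 9 passed. The lists share genes, since Nr4a1 counts among both the monocyte markers and the immediate-early genes. Cd101 counts among both the mature neutrophil genes and the inhibitory receptors.

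Other groups rose where Cd274 and Cd244 were lower. Of 10 primary granule genes of neutrophil precursors 8 have a named row and all 8 rose, such as Ctsg (21.3-fold) and Mpo (16.3-fold). Their sums were 88.17 to 93.17 in the mice and 65.27 to 69.29 in the pools. Of 23 cell division genes 20 have a named row and all 20 rose, with sums of 187.38 to 195.88 and 145.00 to 152.34. Among all rows limma called 14.3% higher and 8.83% lower, and of the 895 named genes 485 were higher. The B cell list had Cd22 alone (8.18 to 8.58 in the pools, 6.01 to 6.40 in the mice). The list of basophils, mast cells and eosinophils had Ms4a2 alone, which rose by 1.46 on the log2 scale. It lay at 4.83 to 5.22 in the pools and at 6.21 to 6.85 in the mice. Its level in the pools is below every array median, so the size of this rise is uncertain. Of 10 natural killer cell and 10 T cell markers 0 have a named row, although natural killer cells carry 2B4. The part of any of these cell types, or of maturation, in the levels of Cd274 and Cd244 was not tested.

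The genes whose profile over the 9 samples lay nearest to Cd274 were chosen by the Euclidean distance between log2 profiles from which each gene's own control mean had been subtracted. They were the bitter taste receptor Tas2r126 (distance 0.72), the integrin gene Itgax (0.74), the lectin Clec4n (0.83), the MHC class II gene H2-Ab1 (0.84) and the invariant chain Cd74 (0.90). Their differences ran from -2.96 to -3.26. Tas2r126 had a mean of 5.16 in the mice, below every array median, so the size of its change is uncertain. Most of the likeness of these genes to Cd274 is the shared difference between the groups. The distance that chose them also used their deviations from the group means, so likeness in those was in part selected. The deviations from the group means, over the same 9 samples, correlated with those of Cd274 at 0.51 for H2-Ab1, 0.47 for Cd74 and 0.37 for Itgax. They correlated at 0.15 for Tas2r126 and at -0.30 for Clec4n.

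The genes nearest to Cd244 were others. Tpd52, a vesicle traffic protein, lay nearest (distance 0.32), followed by the polysialyltransferase St8sia4 (0.44), the immediate-early gene Ier5 (0.48), the integrin gene Itga8 and the actin-binding substrate Marcks (0.49 each). Their differences ran from -1.78 to -1.93. Their deviations correlated with those of Cd244 at 0.84 for Tpd52, 0.65 for St8sia4, 0.70 for Ier5, 0.57 for Itga8 and 0.55 for Marcks. Itga8 had a mean of 4.9 in the mice, below every array median, so the size of its change is uncertain. Cd274 and Cd244 lay 3.22 apart, and their deviations correlated at -0.10. The nearest genes were chosen in part on these deviations, so their correlations with Cd244 are no separate support. All these correlations describe 9 arrays that share 1 normalization, and genes near in profile are not thereby linked in function.

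**Figure D3:**
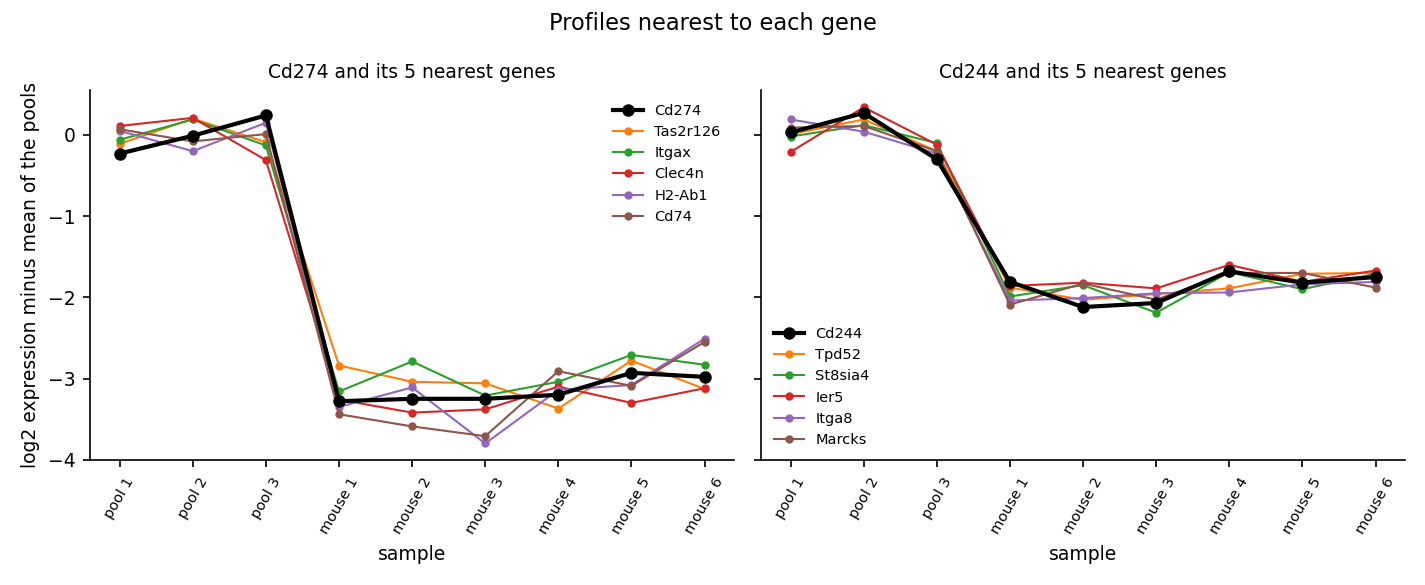
Log2 expression minus the mean of the pools in each sample for Cd274 (left, black) and Cd244 (right, black) with the 5 genes nearest in profile (colours). Lines only join the points of a gene; Cd274 and its neighbours drop by about 3 log2 units in the mice and Cd244 and its neighbours by less.

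Relations were also tested within the 6 mice, apart from the difference between the groups. The authors' test used the size of the spread among mice to choose the rows, but not how 2 genes vary together. The mice with more Cd274 were mice 5 and 6, at 6.56 and 6.51, while the other 4 lay between 6.21 and 6.29. For Cd244 mouse 4 was highest at 9.5, and mice 2 and 3 were lowest at 9.06 and 9.11. The order of the mice thus differed between the genes, and Cd274 and Cd244 were not shown to vary together. Pearson's r was 0.41 (exact permutation test, two-sided, n = 6, p = 0.397, adjusted p = 0.464) and Spearman's rho was 0.26 (exact p = 0.658). Without the 2 mice farthest from the median of Cd274 r was 0.38.

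Each gene was also set against the mean level of 4 lists in the same mice. Nr4a1 enters the means of both the monocyte and macrophage list and the immediate-early list. The interferon-gamma-induced mean includes Nos2, which was higher in the mice than in the pools, while the other named genes of that list were lower. Immediate-early genes, at 9.19 and 9.15 in mice 5 and 6 and at 9.07 to 9.10 in the others, gave the highest r with Cd274, 0.94 (exact permutation p = 0.0181, adjusted p = 0.199, n = 6). Spearman's rho was 0.66 (exact p = 0.175). This r depended on the scaling: it was 0.88 after median centring and 0.63 after quantile normalization (exact permutation, adjusted p = 0.491). Interferon-gamma-induced genes, at 6.64 in mice 5 and 6 and at 6.31 to 6.52 in the others, gave r = 0.84 (exact permutation p = 0.0389, adjusted p = 0.214) and rho = 0.83 (exact p = 0.0583). Both relations rest on mice 5 and 6, since r fell to 0.10 and 0.24 without them. Neither passed after adjustment.

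Cd274 had r = 0.72 with mature neutrophil genes (exact permutation p = 0.107, adjusted p = 0.363; rho = 0.83, exact p = 0.0583) and 0.55 with monocyte and macrophage markers (exact p = 0.204, adjusted p = 0.374; rho = 0.77, exact p = 0.103). Without the same 2 mice these became 0.66 and 0.92. For Cd244 the monocyte and macrophage markers gave r = 0.60 (exact permutation p = 0.172, adjusted p = 0.374; rho = 0.60, exact p = 0.242), and 0.54 without its 2 farthest mice. Immediate-early genes gave r = 0.52 (exact p = 0.271; rho = 0.43, exact p = 0.419), interferon-gamma-induced genes 0.43 (exact p = 0.376; rho = 0.20, exact p = 0.714) and mature neutrophil genes -0.04 (exact p = 0.933; rho = -0.26, exact p = 0.658). Without the 2 farthest mice these 3 were -0.57, -0.32 and -0.07, and their adjusted p was 0.426, 0.464 and 0.933.

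The Cd244 clone row followed the RefSeq row only loosely among the mice, with r = 0.38 (exact permutation p = 0.422, adjusted p = 0.464; rho = 0.26, exact p = 0.658). With Cd274 the clone row gave r = 0.74 (exact permutation p = 0.132, adjusted p = 0.363; rho = 0.54, exact p = 0.297). The first became -0.07 without the 2 mice farthest on the clone row, mice 3 and 6. The second became -0.74 without mice 5 and 6, the farthest on Cd274. Of 11 relations in all, 2 had an exact permutation p under 0.05 for r, 0 had one for rho, and 0 passed Benjamini-Hochberg adjustment. With 6 mice the smallest p that these permutations can give for r is 0.00139, and for rho without ties it is larger.

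**Figure D4:**
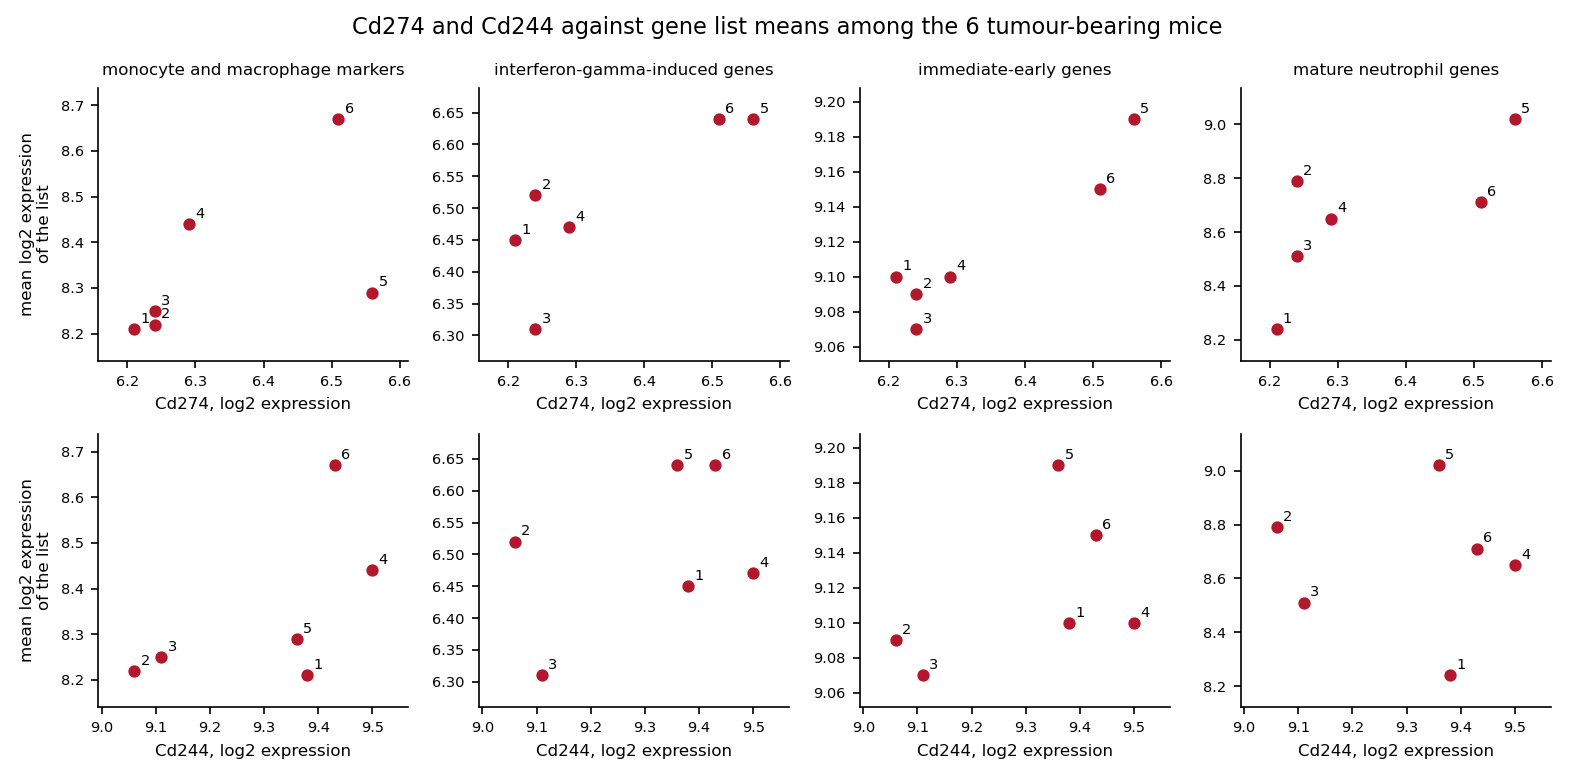
Mean log2 expression of the named genes of 4 lists (vertical) against Cd274 (upper row) and Cd244 (lower row) in the 6 tumour-bearing mice, numbered by replicate. Mice 5 and 6 stand to the right in the Cd274 panels, with the immediate-early mean at 9.19 and 9.15 there. In the Cd244 panels mice 2 and 3 stand to the left, at 9.06 and 9.11, and the other mice lie between 9.36 and 9.5.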

How the data were processed

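CD11b+Gr1+ spleen cells of 6 mice and 3 control pools were measured on expression arrays. The deposited values are log2 expression, 1 per row and sample, normalized across arrays by the authors. Affymetrix Power Tools, RMA, PLIER and the build mm9 are named per the submitters' processing notes. Their versions and their roles are not given in the sources. Per the series design, the authors' table holds rows chosen by a two-sample test with 10000 permutations, p below 0.001 and a minimum change of 2-fold. Its last number column, headed as a ratio, equals the difference of the deposited log2 group means.

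Each of its 964 rows matched exactly 1 of 31648 array rows when the 9 values were compared to 5 decimals. Only these rows have names, updated by accession (717), symbol (114) or synonym (52) from RefSeq GRCm38.p6, while 81 kept the name in the file. That is not the authors' build, and only names, gene order and promoter windows were taken from it. All rows were fitted by lmFit and eBayes of limma 3.58.1 (R 4.3.3, two-sided), with Benjamini-Hochberg adjustment over all rows and a threshold of 0.05. The fit was tested on simulated data. SE values come from this fit. Relations among mice used exact permutation of 6 values, adjusted over 11 relations, of which the 2 with the clone row were added after seeing the data.

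The members and the 20 gene lists (294 genes, 81 with a named row) were chosen with earlier results of these data known. The text names up to 4 genes of a list by absolute difference, the 5 nearest in profile to each member, and the row of highest mean of a gene. An item of these lists is not reported here. List genes without a named row and the neighbours in gene order are named outside this rule. Every sample of the labels was used, and the labels do not say whether mice shared litters or days. Arrays give no counts, and their number limits the precision. Alternatives were median centring, quantile normalization, a pseudocount of 16, a filter on dim rows, a trended robust fit, a Welch test, the methods' t-test, leaving out each sample, a block for the replicate number and the mean of both Cd244 rows.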

Additional observations from a re-analysis of the deposited data

Results flagged for a closer look

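Cd80, the B7 gene named beside Cd274, was unusually low in tumour-bearing mouse 4, at 7.12. The remaining mice spanned 7.33 to 7.43, so that this distance made up 0.672 of the whole span of the mice. All 6 mice remained below the 3 pools. Of 63 genes, rows and list means examined in this way 1 had a mouse so far apart, where chance gives about 3.15.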

How the results depend on the processing

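The difference of Cd274 ranged from -3.26 to -3.03 and that of Cd244 from -2.03 to -1.74 when 1 sample was left out, and the clone row from -2.36 to -1.92. A pseudocount of 16 moved Cd274 to -2.92, because it draws dim values up. With the replicate block, in which mice 4 to 6 drop out, the values were -3.26 for Cd274 and -2.0 for Cd244. The mean of both Cd244 rows was -2.04. Other scalings moved no member by more than the spread between samples. The 7333 changed rows (2795 lower, 4538 higher) became 3812 (1334 and 2478) with a Welch test and 4289 (1474 and 2815) with the replicate block. Leaving out 1 sample gave 6201 to 7113 (2398 to 2657 lower, 3688 to 4505 higher). Deviations of same-numbered samples correlated at 0.09, 0.01 and 0.02, and the numbers were not taken to pair samples. Of 813 values for the 48 other named genes under alternatives, 810 kept direction and call. The calls of Fos and Junb were lost with a Welch test (adjusted p = 0.0707 and 0.0716) and that of Usp18 with the block. Of 110 values for the relations among mice under alternatives 0 passed (smallest adjusted p 0.0764, exact permutation). The r of Cd244 with mature neutrophil genes, -0.04, turned to 0.17 without mouse 1 and to 0.19 without mouse 2 (range over mice left out -0.23 to 0.19). The cause was not tested. Whether a dim row was detected at all was not assessed.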
